A study of Mus musculus with 12 samples.

Results

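The MHC class II and associated genes examined here are 10 named genes among 18992 gene identifiers listed for a sort of PD-1+CD44+CD8+ T cells: H2-Aa, H2-Ab1, H2-Eb1, Cd74, H2-Oa, H2-Ob, H2-DMa, H2-DMb1, Ciita and Cd86. They were chosen by symbol, and all 10 were listed in each of the 3 tables. The mice were NZB/W F1, the cross of NZB with NZW, which develops lupus nephritis as it ages. Spleens were taken when the mice were 12 weeks (12W spleen) or 28 weeks old (28W spleen), and kidneys at 28 weeks (28W kidney). All groups shared the strain and the sort, none carried an engineered allele per the labels, and transcripts were counted with 5′ chemistry that tags each captured molecule with a unique molecular identifier (UMI). Every group has 4 samples, whose names end in lane-like numbers, and the tables pool them. Whether they were sequencing lanes of 1 library or separate libraries is not stated. Each group was therefore treated as 1 library, so differences between groups were not checked by replicates and no test was possible. The labels of the 28W spleen samples give 12 weeks as age, and the group was taken from the title. Where 3 values stand in a row without names, they are in the order 12W spleen, 28W spleen, 28W kidney, called library order. How many mice stand behind a library is not stated.

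MHC class II molecules display peptides from the endosome to CD4+ T cells and are characteristic of B cells, dendritic cells and macrophages. Their alpha and beta chains assemble with the invariant chain (Cd74), a fragment of which is later exchanged for antigen peptide by the catalyst H2-DM, and H2-O restrains H2-DM. Transcription of the family is switched on by the coactivator CIITA, which is recruited by factors bound to the X and Y boxes of class II promoters. Resting mouse T cells are generally regarded as lacking CIITA and class II transcription. The sort here took PD-1+CD44+ cells, and which cells gave the class II transcripts was not tested.

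The H2 members lie together on chromosome 17 of GRCm38, between the start of H2-Oa (34092340) and the end of H2-Eb1 (34316674). H2-Aa (34282744 to 34287823) encodes the alpha chain and H2-Ab1 (34257689 to 34269419) the beta chain of I-A, and H2-Eb1 (from 34305867) encodes the beta chain of I-E. H2-Oa (ending at 34095234) and H2-Ob (34238903 to 34254414) encode the chains of H2-O, and H2-DMa (34119541 to 34139101) and H2-DMb1 (34153072 to 34160230) encode chains of H2-DM. Ciita (10480059 to 10528418) and Cd86 (36603869 to 36666081), a ligand of CD28 and CTLA-4, are on chromosome 16. All members are protein-coding. In the annotation, exons of H2-Oa, H2-DMa and Ciita overlap those of BC051537, Brd2 and Dexi on the other strand, and Cd74 overlaps Mir5107. Whether the counting used strand is not given in the sources used here, so reads in these overlaps cannot be told apart. NZB and NZW mice carry other H2 alleles than the reference strain, and how that affected the counts was not tested.

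Promoters of 6 members could be read from RefSeq (GRCm38.p6), and 4 are shown because they show how alike the control regions of a classical gene and the H2-O pair are written. Each line spans 110 to 31 bases before the start site, and capitals mark the X-box core AGCAAC and the Y-box core TGATTGG on the gene's strand; the 250 bases before each start site were searched on both strands.
H2-Eb1 (chr17:34305757-34305836, + strand): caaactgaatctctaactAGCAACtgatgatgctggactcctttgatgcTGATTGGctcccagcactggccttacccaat
H2-Oa (chr17:34092269-34092348, + strand): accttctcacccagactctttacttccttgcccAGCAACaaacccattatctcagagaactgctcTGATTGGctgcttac
H2-Ob (chr17:34238795-34238874, + strand): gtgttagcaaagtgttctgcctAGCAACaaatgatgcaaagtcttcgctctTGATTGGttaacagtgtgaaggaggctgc
H2-Aa (chr17:34287854-34287933, - strand): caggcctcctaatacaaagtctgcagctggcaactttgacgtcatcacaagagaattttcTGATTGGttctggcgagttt
H2-Eb1, H2-Oa and H2-Ob hold both cores in the same order, with 25, 26 and 23 bases between them. H2-Aa and H2-DMb1 hold the Y-box core alone within the 250 bases. H2-DMa holds neither letter string before either of its listed start sites, whose windows begin at 34122722 and 34125408, inside the annotated gene. The H2-DMb1 window (34153081 to 34153160) also lies inside its annotated gene, and that of H2-Oa ends at 34092348, past the annotated start (34092340). Positions are thus relative to the RefSeq start sites. The X-box core is in 12.2% and the Y-box core in 7.23% of 32851 RefSeq windows of 250 bases, and the pair in this order on the gene's strand, at most 40 bases apart, is in 22 of them (0.067%), these 3 included. A match is a description of letters, not evidence of binding, and the lack of an exact match is not evidence that a box is absent.

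In library order, the tables held 6894, 6481 and 7135 cells in 10, 11 and 12 clusters, with 34742303, 32023473 and 29937384 UMIs. The clusters came with the data and were built separately for each library, so a number in 1 library has no counterpart in another. Between 52 and 66 cell barcodes were shared by any pair of libraries. A cluster is called marked where at least 3 genes of a B cell list (10 genes) or a myeloid and dendritic list (16 genes) had 10 or more UMIs and a log2 ratio to the rest of the library of at least 1. No member is in either list. Of 33 clusters, 5 were marked: cluster 3 of 12W spleen, clusters 8 and 10 of 28W spleen and clusters 8 and 12 of 28W kidney. Clusters 2 and 7 of 28W kidney met the same limit for plasma cell and kidney tubule lists, and cluster 11 for a red cell list alone. The other 25 clusters are called unmarked. Levels are given as UMIs per 1000000 UMIs (CPM) of the library, cluster or set of clusters, with an exact 95% Poisson interval that covers counting error only. UMIs were not scaled by transcript length, so levels are compared between samples or clusters and not between genes.

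Clusters with markers of class II-bearing cells were present in every library. The marked clusters held 1061 (15.4%), 623 (9.61%) and 728 (10.2%) cells in library order. Clusters 8 and 12 of 28W kidney differed most plainly in their markers. Cluster 8 had all 10 B cell genes above the limit and 3098 CPM of that list, against 486 CPM of the myeloid and dendritic list. It also passed for all 4 plasma cell genes (3670 CPM). Cluster 12 had all 16 myeloid and dendritic genes above it and 29884 CPM of that list, against 307 CPM of the B cell list. In 28W spleen, cluster 10 passed for all 10 B cell and 14 myeloid and dendritic genes (4720 and 9006 CPM). Of the myeloid and dendritic list, cluster 8 of 28W spleen passed for Lyz2, Fcer1g and Tyrobp only, with 5 other genes at 0. That cluster 8 also passed for Ighm, for all 4 red cell genes (40615 CPM) and for 3 plasma cell genes (5180 CPM), and its Cd8a stood at 399 CPM. Cluster 10 passed for the same 3 plasma cell genes (6774 CPM). Cluster 3 of 12W spleen was mixed. It passed for 7 B cell and 9 myeloid and dendritic genes and for plasma and red cell genes, while Cd3e, a chain of the T cell receptor complex, stood at 1126 CPM and Cd8a at 301. Cd8a was lower in cluster 10 of 28W spleen (143 CPM) and in kidney clusters 8 (168) and 12 (160) than in the unmarked clusters of those libraries, where its lowest levels were 309 and 631.

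The genes called classical here (H2-Aa, H2-Ab1, H2-Eb1 and the invariant chain gene Cd74, summed) were found mainly in the marked clusters. These held 86.2% (exact binomial 95% interval 85.4 to 86.9) of the summed UMIs of the youngest library, 91.3% (90.9 to 91.6) of 28W spleen and 91.2% (91.0 to 91.4) of kidney. With clusters 2, 7 and 11 added, the kidney share was 98.6%. The summed level was 46941 CPM (46525 to 47360) in kidney cluster 12, or 264.9 UMIs per cell, and 14243 (14104 to 14383) in kidney cluster 8, or 73.4 per cell. It was 28204 CPM (27809 to 28602) in cluster 10 and 766 (681 to 859) in cluster 8 of 28W spleen, and 3355 (3279 to 3431) in cluster 3 of 12W spleen. The unmarked clusters ranged from 18.2 to 151 CPM, with a median of 53.5 and at most 1.39 UMIs per cell. Every marked cluster thus lay above every unmarked cluster, as the heatmap shows. The top cluster of each library also led for most other members. Cluster 3 of 12W spleen was highest for 8 of 10 members, against 10.6% of all 16110 genes, cluster 10 of 28W spleen for 9 of 10, against 14.0%, and cluster 12 of 28W kidney for 8 of 10, against 17.7%.

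**Figure D1:**
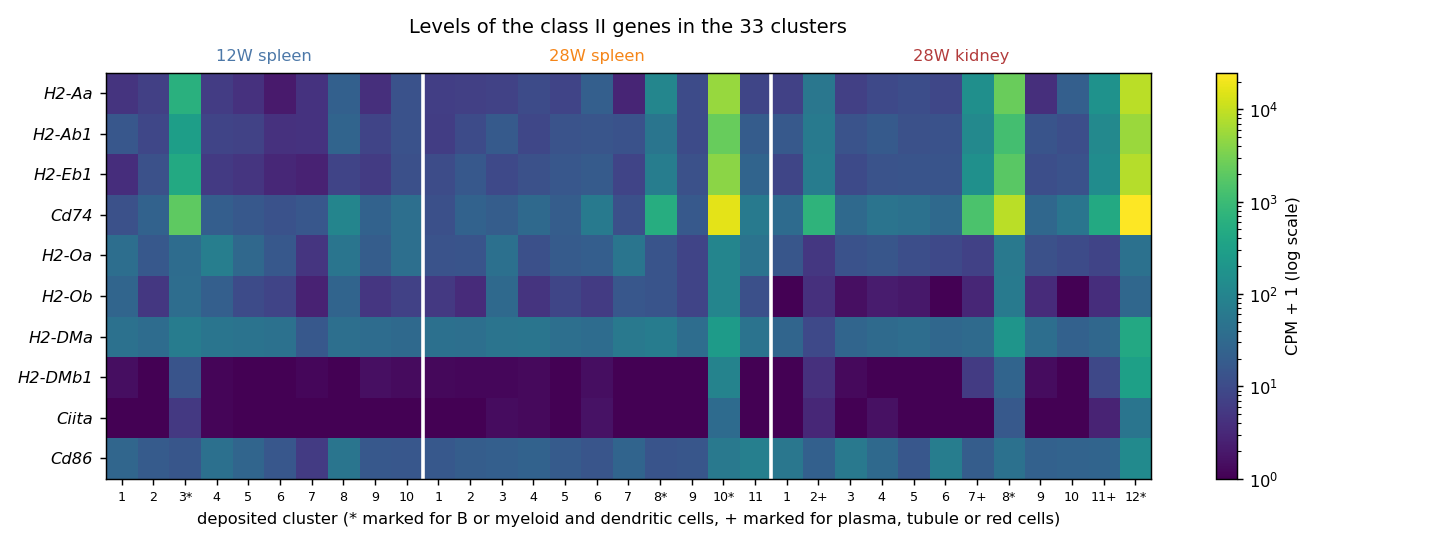
Level of each of the 10 class II genes (rows) in the 33 clusters (columns, grouped by library), as CPM plus 1 on a log colour scale. The 4 classical genes are bright in the marked columns (asterisk), most of all in kidney cluster 12, while H2-Oa, H2-DMa and Cd86 are seen in nearly all columns and H2-DMb1 and Ciita are dark outside the marked ones.

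The kidney clusters 2, 7 and 11 stood above all unmarked clusters and above the lowest marked one. The classical sum was 1831 CPM (1763 to 1901) in cluster 7, 922 (862 to 985) in cluster 2 and 885 (857 to 915) in cluster 11. Clusters 2 and 7 carried plasma cell lists of 15259 and 6491 CPM and tubule lists of 1463 and 12765 CPM. The share of the invariant chain was higher in them than in the marked kidney clusters. Cd74 made up 79.7% (76.9 to 82.3) of classical UMIs in cluster 2 and 76.6% (75.0 to 78.2) in cluster 7, against 61.2% (60.7 to 61.7) in cluster 8 and 52.9% (52.4 to 53.3) in cluster 12, while the sparsely counted cluster 8 of 28W spleen had 70.4% (64.8 to 75.6). Cluster 11 had 51.8% (50.1 to 53.4), an average of 11404 UMIs per cell and no raised B cell list (129 CPM). Its myeloid and dendritic list was at 432 CPM, above the 204 to 267 CPM of the unmarked kidney clusters. Its red cell list was at 1799 CPM, its Cd8a at 671 and its Cd3e at 1159. Whether doublets or free RNA gave these clusters their class II UMIs was not tested.

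**Figure D2:**
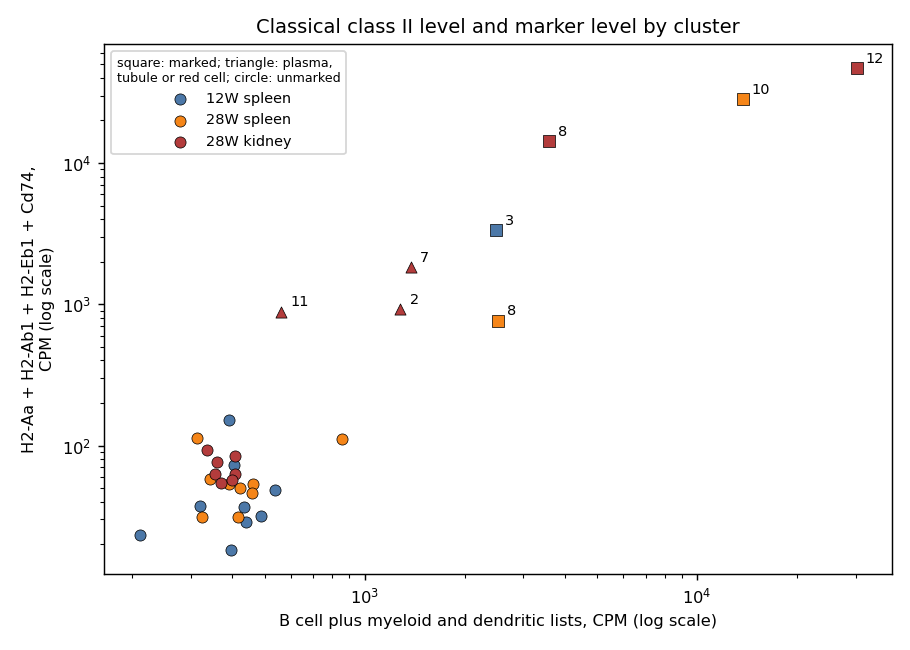
Summed level of H2-Aa, H2-Ab1, H2-Eb1 and Cd74 (vertical) against the summed level of the B cell and the myeloid and dendritic lists (horizontal) in each of 33 clusters, both in CPM on log axes. Squares are marked clusters, triangles kidney clusters 2, 7 and 11 and circles the unmarked clusters, which stay between 18.2 and 151 on the vertical axis.

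The age comparison asked how the same sort from spleen differed between 12 and 28 weeks. H2-Aa was at 44.0 CPM (41.9 to 46.3) at 12 weeks and 124 (120 to 128) at 28 weeks. H2-Ab1 was at 26.4 (24.7 to 28.1) and 62.5 (59.7 to 65.3) CPM. H2-Eb1 was at 35.4 (33.5 to 37.5) and 106 (103 to 110) CPM, and Cd74 at 147 (143 to 151) and 385 (378 to 392). These 4 genes were thus 2.37- to 2.996-fold higher at 28 weeks, with intervals that did not meet. When the deposited cluster means were weighted by cells, they were 1.97-fold (H2-Ab1) to 2.31-fold (H2-Eb1) higher. The H2-O genes did not share this rise. H2-Oa was at 33.6 CPM (31.7 to 35.6) and then 23.7 (22.01 to 25.4), and H2-Ob at 13.7 (12.5 to 15.0) and 11.6 (10.4 to 12.8), whose intervals overlapped. H2-DMa was at 39.6 (37.5 to 41.8) and 47.8 (45.5 to 50.3) CPM and Cd86 at 22.1 (20.6 to 23.8) and 19.5 (18.0 to 21.1). H2-DMb1 (36 and 70 UMIs) and Ciita (11 and 30 UMIs) were scarce in both. On the log2 scale with 1 CPM added, the median over the 10 members was 0.60, against -0.05 over 15082 genes. Past a log2 ratio of 1, 4 of 10 members were higher (background 1.41%) and 0 were lower (background 0.736%).

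The organ comparison set 28W kidney against 28W spleen, and shares the 28W spleen library with the age comparison. H2-Aa was at 568 CPM (560 to 577) in kidney, H2-Ab1 at 334 (327 to 341), H2-Eb1 at 488 (480 to 496) and Cd74 at 1857 (1841 to 1872), which put them 4.57- to 5.35-fold above 28W spleen. With the deposited cluster means weighted by cells, in which each cluster counts by its number of cells, they were 2.07- to 2.56-fold above it. H2-DMb1 was at 14.8 (13.5 to 16.3) against 2.19 (1.70 to 2.76) CPM, a 6.78-fold difference (5.26 to 8.86) that was 3.09-fold with weighted means. Ciita was at 3.64 (2.99 to 4.39) against 0.937 (0.632 to 1.34) CPM, and Cd86 at 41.5 (39.2 to 43.9) against 19.5. H2-DMa reached 58.5 CPM (55.8 to 61.3). H2-Oa (16.2, 14.8 to 17.7) and H2-Ob (7.75, 6.78 to 8.81) were the members that were lower. The median log2 ratio was 1.72, against 0.08 over 15462 genes, with 7 of 10 members past the 2-fold limit upward (background 6.16%) and 0 downward (background 1.04%). A library level mixes how many cells of a type were captured with the RNA in each, and these cannot be told apart from the library sums. In library order, the B cell list was at 274, 299 and 475 CPM and the myeloid and dendritic list at 270, 397 and 1347 CPM. The classical sum was at 253, 678 and 3247 CPM, and the marked clusters held 6.49%, 3.36% and 12.8% of all UMIs. The part of captured cells in the class II differences was not tested.

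The comparison was therefore repeated within the unmarked clusters, a choice made after seeing the data. Several defining markers were at or near 0 there, and others were not. Siglech had 0 UMIs in all 3 libraries, Pax5 had 2, 8 and 0 UMIs in library order, and Ms4a1 was at no more than 0.905 CPM, while Ighm (118 to 171 CPM) and Cst3 (154 to 200 CPM) made up most of the remaining list levels. Cd79b stood at 37.2, 36.4 and 19.6 CPM, Fcer1g at 17.8, 12.6 and 12.5, and Itgax at 1.63, 2.88 and 11.8. Between 12 and 28 weeks Cd22 went from 0.739 to 2.39 CPM, Lyz2 from 0.369 to 1.32 and Ms4a1 from 0.400 to 0.905, whereas C1qa went from 3.29 to 1.74. Over the whole lists, 7 of 10 B cell and 6 of 16 myeloid and dendritic genes were higher at 28 weeks, with median log2 ratios of 0.06 and -0.06, and 0 of either list was past a log2 ratio of 1 in either direction. The part of such cells in the class II values of the unmarked clusters was not tested. Cluster 11 of 28W spleen, though unmarked, had 1087 CPM of the plasma cell list and 654 of the B cell list. H2-Aa was at 4.74 (4.02 to 5.55), 9.14 (8.11 to 10.3) and 7.21 CPM (6.07 to 8.50) in library order. Cd74 was at 19.5 (18.0 to 21.0), 28.4 (26.6 to 30.3) and 36.2 (33.6 to 39.0) CPM. H2-Ab1 was at 8.25 (7.29 to 9.30), 11.1 (10.0 to 12.4) and 13.8 (12.2 to 15.5) CPM. H2-Eb1 was at 4.92 (4.19 to 5.75), 12.6 (11.4 to 13.95) and 10.1 (8.77 to 11.6) CPM. The 28-week values leaned on cluster 6 of that library, which had 12208 UMIs per cell and held 45.8% of the Cd74 and 46.3% of the H2-Aa UMIs but 20.8% of all UMIs of these 9 clusters. Of the UMIs of these 9 clusters, cluster 6 also held 21 of 28 for Ms4a1 and 38 of 65 for Cd79a. Its whole B cell list was at 157 CPM, against 192 over the 9 clusters. Without cluster 6, Cd74 was at 19.4 CPM (17.7 to 21.3), against 19.5 at 12 weeks, and H2-Aa at 6.20 (5.26 to 7.27). H2-Ab1 and H2-Eb1 were then 1.28-fold (1.08 to 1.53) and 2.30-fold (1.89 to 2.82) above 12 weeks, and H2-Aa 1.31-fold (1.04 to 1.65). This removal touched the 28-week side only. Cluster 10 of 12W spleen, with 14345 UMIs per cell, stayed in the 12-week values. Its Cd74 was at 38.8 CPM (32.1 to 46.5) and its H2-Aa at 11.6 (8.09 to 16.2). The age difference without both clusters was not tested. Between organs Cd74 was 1.27-fold (1.15 to 1.41) higher in kidney, and 1.86-fold without cluster 6. The smaller organ differences of H2-Aa, H2-Ab1 and H2-Eb1 each came to have an interval that met 1 when some single cluster was left out. By age, the median log2 ratio of the members was 0.22 (all genes -0.05), and H2-Eb1, 2.57-fold higher (2.13 to 3.10), was the 1 member past 2-fold upward (background 1.13%), with 0 downward (background 0.676%). By organ, the median was -0.22 (all genes 0.01). Cd86 was the 1 member past 2-fold upward (background 2.17%) and H2-Ob the 1 downward (background 2.32%). The unmarked set left out kidney cluster 11, with 11404 UMIs per cell, but kept cluster 6 of 28W spleen. With kidney clusters 2, 7 and 11 included, H2-Aa, H2-Ab1, H2-Eb1 and Cd74 were 3.20- to 7.25-fold above 28W spleen.

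**Figure D3:**
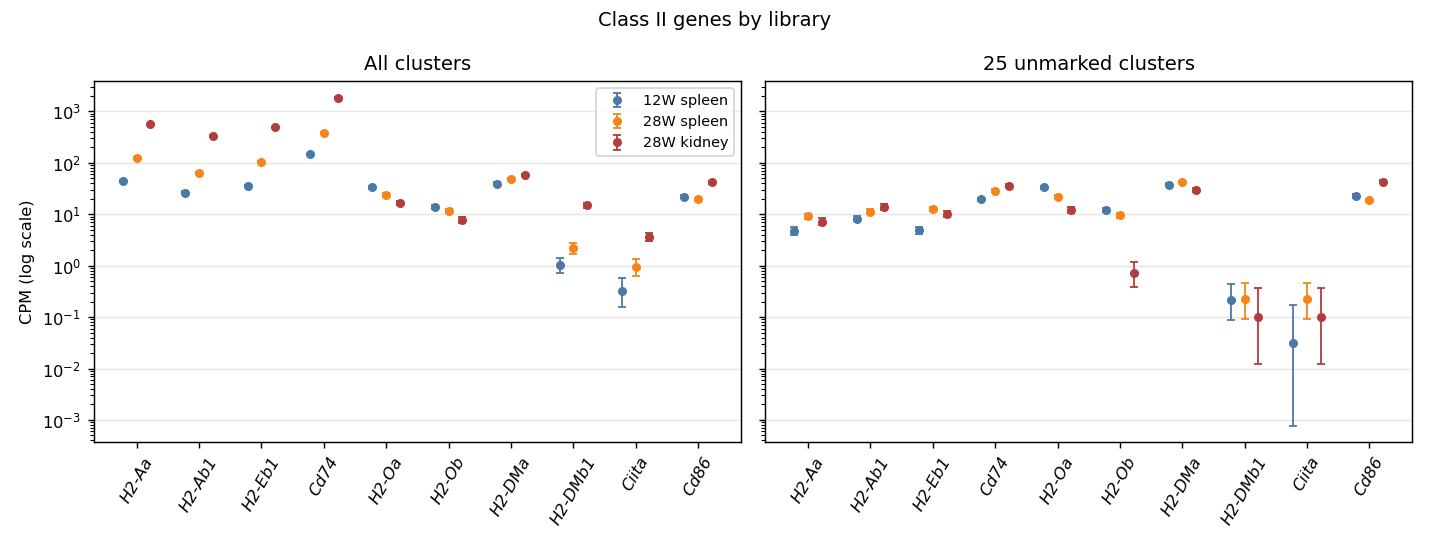
Level of each class II gene in the 3 libraries, in CPM on a log axis, over all clusters (left) and over the 25 unmarked clusters (right). Points are single libraries and bars exact 95% Poisson intervals of the counts; the steps between libraries seen for the classical genes on the left (Cd74 147, 385 and 1857) narrow on the right for Cd74 (19.5, 28.4 and 36.2) and less so for H2-Eb1 by age (4.92 and 12.6).

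Within the unmarked clusters the classical UMIs had another composition than in the marked ones. H2-Ab1 made up 63.5% (58.7 to 68.1) of H2-Ab1 plus H2-Aa UMIs at 12 weeks, 54.9% (50.9 to 58.9) at 28 weeks and 65.6% (60.8 to 70.2) in kidney. In the marked clusters of the same libraries it made up 32.0% (29.99 to 34.1), 30.9% (29.7 to 32.2) and 36.2% (35.6 to 36.8). By cluster, the marked ones lay between 30.9% and 38.4%. Of 25 unmarked clusters, 24 had a share above that range, and 15 had an interval wholly above it. The exception was kidney cluster 10 (8 of 24 UMIs, 33.3%). The lowest of the well-counted unmarked clusters was cluster 6 of 28W spleen, at 39.6% (33.1 to 46.5), which also had the highest H2-Aa among unmarked clusters of its library (20.3 CPM, 17.0 to 24.1) and 1.39 classical UMIs per cell. In cluster 1 of 12W spleen the share was 80.4% (71.8 to 87.3), from 90 UMIs of H2-Ab1 and 22 of H2-Aa.

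**Figure D4:**
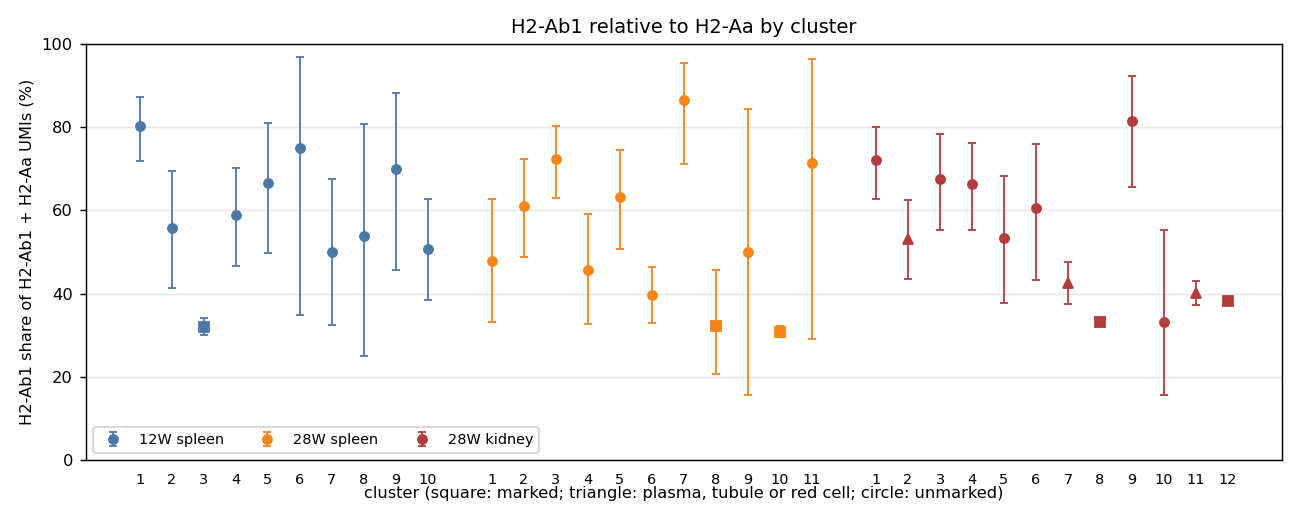
Share of H2-Ab1 among H2-Ab1 plus H2-Aa UMIs (vertical axis, percent) in each cluster (horizontal axis, by library), with exact binomial 95% intervals. The marked clusters (squares) sit between 30.9% and 38.4%, and 24 of 25 unmarked clusters (circles) sit above them.

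H2-Oa and H2-Ob, like H2-DMa and Cd86, were members whose UMIs came mostly from unmarked clusters in spleen, where the marked clusters held 6.49% and 3.36% of all UMIs. Marked clusters held 6.77% (5.40 to 8.37) and 9.63% (7.62 to 12.0) of H2-Oa UMIs in 12W and 28W spleen but 43.0% (38.6 to 47.5) in kidney. For H2-Ob these shares were 16.8% (13.6 to 20.5), 19.7% (15.8 to 24.2) and 86.6% (81.6 to 90.7). Per UMI the marked clusters were mostly the richer ones: H2-Ob was at 35.5, 67.9 and 52.3 CPM in them, and H2-Oa at 35.1 (27.8 to 43.7) at 12 weeks, 67.9 (53.2 to 85.4) in 28W spleen and 54.4 in kidney. Over the unmarked clusters H2-Oa was at 33.5 (31.5 to 35.5), 22.1 (20.5 to 23.9) and 12.1 CPM (10.6 to 13.7). H2-Ob was at 12.2 (11.02 to 13.5), 9.60 (8.54 to 10.8) and 0.716 CPM (0.391 to 1.20). The kidney level of H2-Ob rested on 14 UMIs in 4665 cells and was 13.4-fold (7.86 to 24.8) below 28W spleen, and that of H2-Oa was 1.83-fold (1.58 to 2.14) below. Single clusters carried part of this: the kidney level of H2-Ob was 0.0746 of that of 28W spleen, and 0.128 without spleen cluster 3 or 0.0486 without kidney cluster 9. By age, the 28-week level of H2-Oa was 0.661 (0.600 to 0.728) of that at 12 weeks, but 0.911 (0.817 to 1.02) without cluster 4 of 12W spleen, and that of H2-Ob was 0.787 (0.675 to 0.917), between 0.458 without cluster 3 of 28W spleen and 1.09 without cluster 1 of 12W spleen. In kidney clusters 1, 6 and 10, H2-Ob had 0 UMIs, which allows up to 0.587, 1.55 and 3.87 CPM. Transcripts of both H2-O chains were thus found in spleen, whereas in the unmarked kidney clusters H2-Ob made up 5.60% (3.10 to 9.22) of H2-Oa plus H2-Ob UMIs. That share was 26.7% (24.4 to 29.0) and 30.2% (27.4 to 33.2) in unmarked clusters of 12W and 28W spleen, and 50.3% and 49.0% in the marked clusters of 12W spleen and kidney, while those of 28W spleen had 73 UMIs of each gene.

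Among unmarked spleen clusters H2-O varied widely. In 12W spleen H2-Oa was highest in cluster 4 (73.6 CPM, 66.9 to 80.7), followed by cluster 8 (49.1, 26.9 to 82.5) and cluster 10 (39.8, 33.03 to 47.6), and lowest in cluster 7 (3.81, 2.29 to 5.95). H2-Ob was highest in cluster 1 (26.4 CPM, 22.5 to 30.7), did not differ beyond counting error from that in clusters 8 (24.6, 9.88 to 50.6) and 4 (20.3, 16.9 to 24.2), and was lowest in cluster 7 (1.60, 0.693 to 3.16). In 28W spleen, clusters 7 (49.3 CPM, 41.3 to 58.4) and 3 (40.1, 34.7 to 46.2) were the highest well-counted ones for H2-Oa. Cluster 3 was highest for H2-Ob (31.4, 26.6 to 36.8), with cluster 7 next (14.4, 10.2 to 19.6). Clusters 8 of 12W spleen and 11 of 28W spleen had 928 and 1288 UMIs per cell and 8.98% and 6.64% mitochondrial UMIs, so their levels are wide. In kidney, unmarked H2-Oa ran only from 8.28 to 14.2 CPM. As a description over the 25 unmarked clusters, which share libraries and totals, H2-Ob went with Lef1, a transcription factor of naive and memory T cells (Pearson r 0.87 on log2 levels, Spearman rho 0.92). Lef1 ran from 95.7 to 776 CPM at 12 weeks, from 74.6 to 370 at 28 weeks and from 22.8 to 82.9 in kidney. Within 12W and 28W spleen alone (9 clusters each) r was 0.86 and 0.87, and H2-Oa had r 0.76 and 0.87 with Lef1. In the 7 kidney clusters r with Lef1 was 0.68 for H2-Ob and -0.01 for H2-Oa. With Dapl1, another gene of the naive and memory T list, H2-Oa had r 0.44 over the 25 clusters and 0.50, 0.04 and -0.16 by library. The 5 genes closest to H2-Ob over these clusters, of 5546, were Xdh, Mpp1, Snx4, 1810041H14Rik and Smc4 (r 0.88 to 0.91), and those closest to H2-Oa were Mpp1, Tspan13, Osbpl9, Smc4 and Evl (r 0.85 to 0.89).

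**Figure D5:**
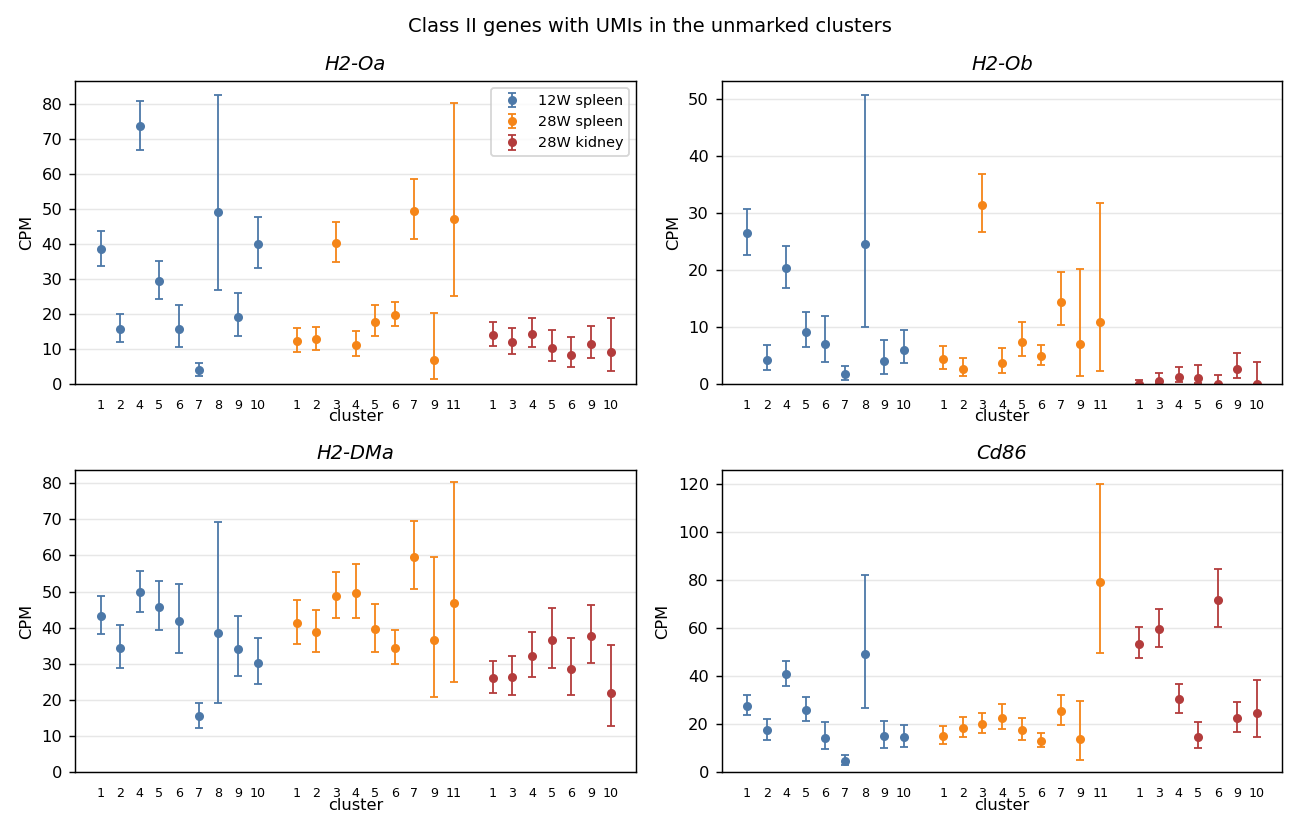
Level of H2-Oa, H2-Ob, H2-DMa and Cd86 in CPM (vertical axes, from 0) in each unmarked cluster (horizontal axes, numbered within a library), with exact 95% Poisson intervals. H2-Ob is at 2.50 or less in all 7 kidney clusters, and H2-DMa runs from 21.95 to 59.6 outside cluster 7 of 12W spleen. Cd86 reaches 71.9 in kidney cluster 6 and, on few UMIs, 79.5 in cluster 11 of 28W spleen.

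H2-DMa was seen with little of its partner chains. In the unmarked clusters it stood at 37.6 (35.5 to 39.7), 43.0 (40.7 to 45.3) and 29.8 CPM (27.4 to 32.3) in library order, whereas H2-DMb1 had 7, 7 and 2 UMIs. Of all H2-DMa, H2-DMb1 and H2-DMb2 UMIs, the beta chain genes made up 2.09% (1.37 to 3.04), 2.56% (1.79 to 3.55) and 2.18% (1.17 to 3.70) there. In the marked clusters they made up 42.9% (36.9 to 49.0), 61.0% (56.7 to 65.2) and 61.7% (59.8 to 63.6). H2-DMa ranged only from 34.4 to 59.6 CPM over the 9 unmarked clusters of 28W spleen and from 21.95 to 37.6 over the 7 of kidney, and was at 15.4 (12.2 to 19.3) in cluster 7 of 12W spleen. Brd2, whose exons overlap H2-DMa, was at 125, 141 and 146 CPM. Over the 25 unmarked clusters pooled, H2-DMa went little with Brd2 (r 0.18, rho 0.21), but the libraries differed. Taken separately in library order, r was 0.61, 0.18 and -0.42, and rho was 0.37, 0.27 and -0.21. The part of Brd2 reads in the H2-DMa counts was not tested. BC051537, which overlaps H2-Oa, was at 0.518, 0.531 and 0.534 CPM.

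The coactivator gene Ciita was almost limited to the marked clusters. In the unmarked ones it had 1, 7 and 2 UMIs in library order, with 8, 6 and 6 of their 9, 9 and 7 clusters at 0, and the marked clusters held 10 of 11, 23 of 30 and 98 of 109 UMIs. Its highest levels were 51.0 CPM (38.2 to 66.8) in kidney cluster 12 and 33.2 (21.1 to 49.9) in cluster 10 of 28W spleen. Over the 33 clusters the genes closest to Ciita were Cd40, Cd180, Fgd2, Ly86 and Wdfy4 (r 0.99), and H2-DMb2, Ctsh and Mef2c were each among the 5 closest to H2-Aa, H2-Ab1 and H2-Eb1 (r 0.94 to 0.96). The marked clusters held the highest levels of these members, so few clusters set these correlations.

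The members differed between the kidney clusters marked by B cell and by myeloid and dendritic genes. H2-DMb1 was at 318 CPM (284 to 354) in cluster 12 and 24.6 (19.2 to 31.2) in cluster 8, a 12.9-fold difference (9.93 to 17.0). The other H2-DM beta chain gene, H2-DMb2, was at 365 and 297 CPM, or 1.23-fold apart (1.09 to 1.39). H2-Aa, H2-Ab1, H2-Eb1 and Cd74 were 2.85- to 4.40-fold higher in cluster 12, and Ciita, Cd86 and H2-DMa 2.31- to 3.18-fold higher. H2-Ob was the reverse, at 61.0 CPM (52.2 to 70.9) in cluster 8 and 28.9 (19.5 to 41.2) in cluster 12, and H2-Oa was at 58.9 (50.2 to 68.6) and 42.4 (30.8 to 56.9), with overlapping intervals. The clusters were defined by expression, so these values are a description.

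Cd86 followed a pattern of its own. The marked clusters held 4.16% (2.86 to 5.82), 7.37% (5.45 to 9.71) and 19.9% (17.7 to 22.2) of its UMIs, against 6.49%, 3.36% and 12.8% of all UMIs. Its level there was 14.2, 42.8 and 64.3 CPM, so it was lower in the marked than in the unmarked clusters at 12 weeks and higher in both 28-week libraries. In the unmarked clusters it was at 22.7 (21.1 to 24.4), 18.7 (17.2 to 20.3) and 43.3 CPM (40.4 to 46.3), in kidney 2.32-fold (2.08 to 2.58) above 28W spleen. Among the unmarked kidney clusters it was at 71.9 CPM (60.5 to 84.9) in cluster 6, 59.9 (52.3 to 68.3) in cluster 3, 53.6 (47.5 to 60.4) in cluster 1, 30.4 (24.9 to 36.8) in cluster 4, 24.5 (14.8 to 38.3) in cluster 10, 22.5 (16.9 to 29.4) in cluster 9 and 14.8 (10.1 to 20.9) in cluster 5. Clusters 6, 3 and 1 thus stood above the rest and overlapped with their neighbours in the order, and neighbours in the order from cluster 4 downward had overlapping intervals. Pdcd1, which encodes PD-1, ran in a like order in these 7 clusters, from 229 CPM in cluster 6 to 69.4 in cluster 5 (r 0.95, rho 0.96). In the unmarked clusters of 12W and 28W spleen r was -0.10 and 0.24. In 12W spleen Cd86 was instead high in cluster 4 (41.1 CPM, 36.1 to 46.5), where Pdcd1 was at 7.26 CPM, and it went with H2-Oa over the 9 clusters (r 0.88). That r was 0.63 in 28W spleen, 0.03 in kidney and 0.34 over all 25 unmarked clusters. By age, Cd86 was at 0.823 (0.737 to 0.919) of its 12-week level, and at 1.01 (0.895 to 1.14) without cluster 4 of 12W spleen. The genes closest to Cd86 over the 25 unmarked clusters were Ms4a4b, Ctsb, Ppp3cc, Tram1 and Slc2a3 (r 0.84 to 0.88).

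The wider class II pathway was read from a list of 20 genes, 2 of them searched under an older and a newer symbol, and 18 were found. By age 1 of 18 was past 2-fold upward (background 1.41%), H2-DMb2 (8.77 against 3.08 CPM), and 1 downward (background 0.736%), Ctsl, a lysosomal protease that trims the invariant chain in thymic epithelium (5.78 against 15.4 CPM), with a median log2 ratio of 0.11. By organ 7 of 18 were past it upward (background 6.16%) and 0 downward (background 1.04%), with a median of 0.74. These included H2-DMb2 (42.8 against 8.77 CPM), the asparaginyl endopeptidase Lgmn (32.2 against 3.53), the costimulatory receptor Cd40 (4.48 against 1.53) and Cd83 (28.9 against 10.6). In the unmarked clusters 0 of 18 were past it upward by organ (background 2.17%) and 1, Ctsl, downward (1.89 against 5.11 CPM, background 2.32%), with a median of 0.05. By age, 0 were upward (background 1.13%) and Ctsl was again the 1 downward there (background 0.676%). The DNA-binding factors of class II promoters were present in the unmarked clusters. Rfxap was at 52.8, 59.1 and 58.9 CPM, Nfyb at 59.2, 47.0 and 49.0, and Rfx5, a subunit of the X-box complex, at 6.93, 5.01 and 9.05. Ctss, the protease that removes most of the invariant chain in antigen-presenting cells, was at 108, 138 and 143 CPM there. IFN-γ, encoded by Ifng, is the chief inducer of CIITA in many cell types. A list of 8 interferon-γ genes held Ifng itself and the receptor gene Ifngr1 beside response genes. Of these 8, 2 were past 2-fold upward by age (background 1.41%) and 0 downward (background 0.736%). The 2 were Ifng (63.5 against 10.0 CPM) and the response gene Socs1 (68.3 against 29.1). By organ 0 were past it upward (background 6.16%) or downward (background 1.04%), and Ifng was at 85.0 CPM in kidney.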

How the data were processed

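Per the labels, sorted splenic and renal PD-1+CD44+CD8+ T cells were sequenced with 10x Genomics 5′ v2 chemistry. The deposited tables give, for each cluster that the authors made, the mean UMI count of a gene after division by cell size factors (a signal), beside the authors' own fold changes and adjusted p-values, which were not used. Submitters' notes list Cell Ranger 2.1.1, R 3.6.1 and GRCm38, and the annotation release and cell filters are not given in the sources used here. Each column held whole multiples of 1 step, the value of 1 UMI, for 100% of values within 0.001, and division by it gave UMIs per gene and cluster. A count test could not be run with 1 library per group. Levels were set to the total of a library, cluster or set of clusters. Log2 ratios had 1 CPM added for library comparisons and 10 CPM for clusters. Intervals are exact Poisson, binomial or conditional binomial limits at 95%, and 3 counts stand for the limit of 0 UMIs. All cover counting error only. The recovery and the intervals were tested on simulated data. Coordinates are from GENCODE M21 and promoters from RefSeq. Besides the 10 members, the genes named are those of 2 fixed lists, the marker lists and the 5 genes closest to each member by Pearson correlation of log2 levels among genes with at least 50 CPM in some cluster; Pdcd1, Lef1, Brd2 and BC051537 were chosen after values were seen. The members and lists were chosen with earlier results of these data known. Doublets were not called, and T cell receptor clonotypes were not used here. Python 3.11.15, numpy 2.4.6, pandas 2.3.3, scipy 1.17.1 and matplotlib 3.10.9 were used.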

Additional observations from a re-analysis of the deposited data

How the results depend on the processing

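No paired analysis was possible because each group was 1 library without a map from cells to samples, and no library could be left out. In the organ comparison the median log2 ratio of the members was 1.72, and it was 0.93 with the deposited cluster means weighted by cells, 1.20 with 5 CPM added, 1.07 without the marked clusters and -0.22 in the unmarked clusters, where 1 member instead of 7 was at least 2-fold higher. The age median was 0.60, and it was 1.12 with 0.1 CPM added, where 6 members instead of 4 were at least 2-fold higher, and 0.25 with 5 CPM added. In the age comparison 1 member instead of 4 was at least 2-fold higher both without the marked clusters and in the unmarked clusters. The organ ratio of H2-DMa turned from 0.29 to -0.073 with weighted cluster means, -0.56 without the marked clusters and -0.51 in the unmarked clusters. In the unmarked clusters the organ ratio also turned for H2-Aa (-0.30), H2-Eb1 (-0.29), H2-DMb1 (-0.15) and Ciita (-0.15), the last 2 on 2 UMIs in kidney. The share of classical UMIs in marked clusters was 93.6%, 95.7% and 87.0% with weighted cluster means and 84.2%, 89.1% and 92.4% without Cd74, in library order (12W spleen, 28W spleen, kidney), and 98.6% in kidney with clusters 2, 7 and 11. In the unmarked clusters without cluster 6 of 28W spleen, a choice made after seeing the data, the age ratio of Cd74 turned from 0.52 to -0.0018 and the organ ratio of H2-Aa from -0.30 to 0.19. Cluster 10 of 12W spleen, also rich in UMIs per cell, was kept in that age ratio. Removing clusters changes which cells are counted. The cause of the other shifts was not tested. The unmarked set and the addition of clusters 2, 7 and 11 were chosen after seeing the data. Under scaling by the median gene ratio, a minimum of 20 UMIs, a pseudocount of 0.1 CPM or totals without receptor, mitochondrial and ribosomal genes, all 20 member ratios kept their sign. For genes with few UMIs, such as Ciita and H2-DMb1, depth limits every statement on the unmarked clusters.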
